A study of Mus musculus with 6 samples.

Results

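Transcripts of tuft cells, the rare chemosensory cells of the gut epithelium, were followed in mouse colon through 10 genes. They were chosen by name for known roles in tuft cell identity, taste-type signalling, the IL-25 axis and leukotriene synthesis. All 10 have a row in the deposited table, which holds 21899 genes. The libraries came from colon tissue of Adamts4 knockout mice (KO, 3 libraries) and wild-type mice (WT, 3 libraries). Both groups had received 2.5% dextran sodium sulfate (DSS), a polysaccharide that injures the colonic epithelium, for 7 days. ADAMTS4, the protein missing in KO, is a secreted protease that cleaves large matrix proteoglycans. The comparison asks how colon RNA under DSS differs between animals with and without it. No label used here states the knockout allele, strain, age, sex or litter of the animals, so genetic background and loss of the protease cannot be told apart. The numbers 1 to 3 name libraries within a genotype and are not said to be separate animals, and p-values then reflect library-to-library spread, which may be technical.

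Tuft cells take their identity from the transcription factor POU2F3 and sense the gut lumen with the cascade that taste cells use, in which a gustducin-type G protein leads to opening of the cation channel TRPM5. They are the main epithelial source of the cytokine IL-25, which acts through the receptor IL-17RB on innate lymphoid cells. The lymphoid cells answer with IL-13, which in mouse small intestine favours the formation of further tuft and goblet cells. Tuft cells also hold 5-lipoxygenase and leukotriene C4 synthase, enzymes that make cysteinyl leukotrienes. Several of these genes are active in other colon cells too, among them macrophages, mast cells and neurons. In whole tissue, fewer cells of a type and less RNA per cell cannot be told apart.

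The libraries held 15786214 to 20348172 counts in KO and 17895970 to 22932125 in WT. Adamts4 was at 0 counts in every KO library and at 48.3 ± 8.94 CPM (counts relative to the scaled library total) in WT (SD, n = 3). KO 3 lay farthest out on the first principal component of all genes tested, with a score of 73.1 against -47.0 to 26.5 in the other libraries, and fibroblast markers summed to 389 CPM there against 1260 to 2290 CPM in the other 5. Mitochondrial genes took 4.03%, 7.66% and 9.5% of counts in the KO libraries and 6.05%, 4.29% and 4.46% in the WT libraries, highest in KO 3 and KO 2, and their part in the results was not tested.

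None of the tuft cell genes passed the test for a difference between KO and WT. Of the 10 genes, 8 passed the expression filter. In edgeR 0 of these 8 were called at an adjusted p below 0.05, against 0.158% of the 14553 genes tested, and 0 of 8 had an unadjusted p below 0.05, against 13.0% of all genes. DESeq2 and limma-voom also called 0 of 8, where they called 3.77% and 0.199% of all genes. For 0 of the 8 genes did the KO and WT values stand clear of each other, against 19.5% of all genes. Log2 fold changes (KO over WT) of the 8 ran from -1.04 to 0.53 with a median of -0.35, beside a median of 0.03 over all genes tested, and 7 of the 8 lay below 0. That median was -0.11 without WT 2 and -0.54 without WT 3. In the authors' deposited table none of the 10 genes had a false discovery rate below 0.05, the lowest being 0.561 for Il17rb.

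**Figure D1:**
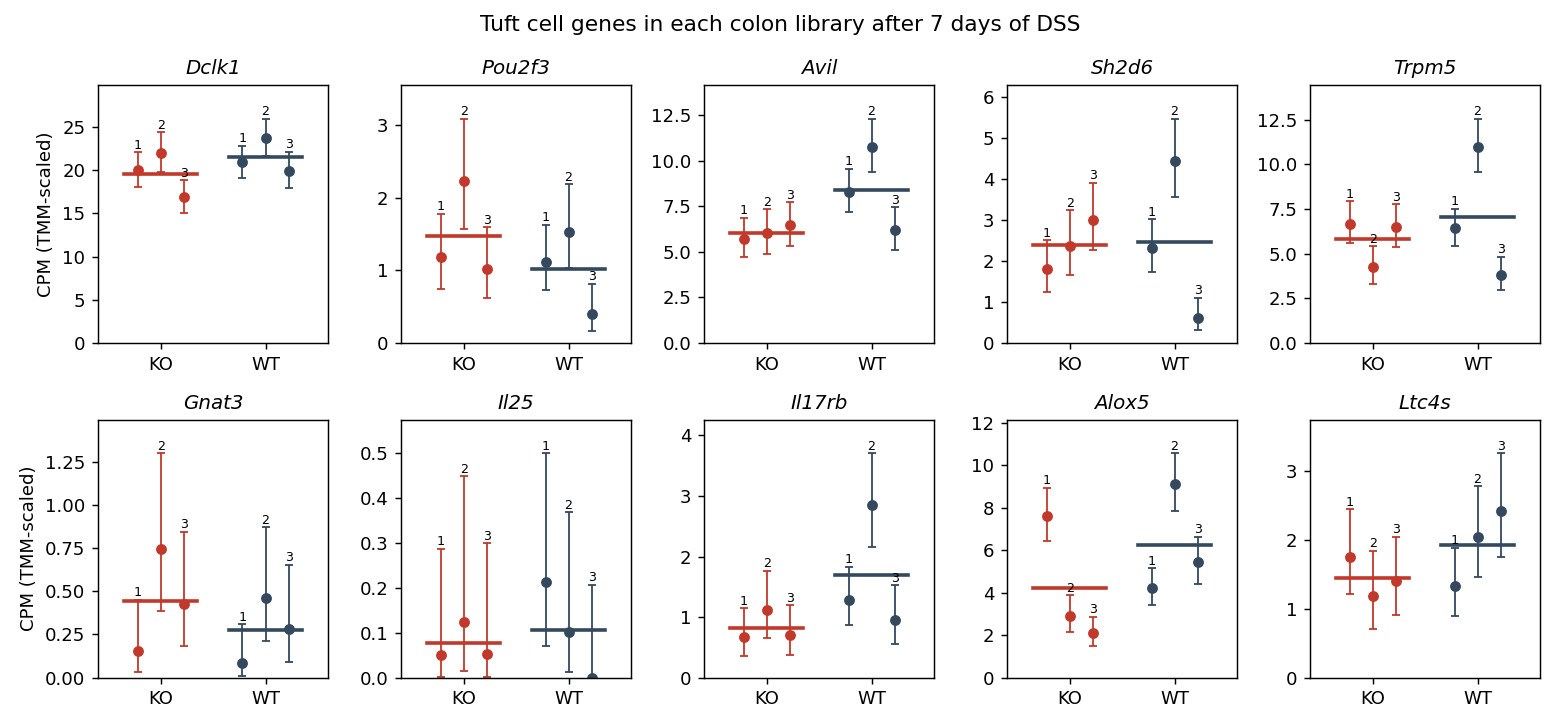
Level of each of the 10 tuft cell genes in every library, in CPM scaled by TMM factors, with KO on the left and WT on the right of each panel. Points are libraries with their replicate number, error bars are 95% Poisson intervals of the counts, which cover counting error only, and horizontal bars are group means. The KO and WT values overlap in all 10 panels, and WT 2 is the highest library for Dclk1, Avil, Sh2d6, Trpm5, Il17rb and Alox5.

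The 10 genes spanned a wide range of levels. Per transcript length, Dclk1 was the most abundant with a mean of 7.15 ± 1.53 TPM, the length-normalised level deposited by the authors, over the 6 libraries (SD, n = 6). Avil (4.99 ± 2.02 TPM), Ltc4s (4.75 ± 1.35 TPM), Alox5 (3.38 ± 1.81 TPM), Sh2d6 (3.21 ± 1.70 TPM) and Trpm5 (3.08 ± 1.21 TPM) formed a middle range. Il17rb (1.11 ± 0.762 TPM), Pou2f3 (0.902 ± 0.476 TPM) and Gnat3 (0.480 ± 0.336 TPM) followed, and Il25 stood last at 0.156 ± 0.130 TPM. Dclk1 exceeded Avil, and Trpm5 exceeded Il17rb, in 6 of 6 libraries, each with an exact two-sided sign-flip permutation p of 0.0312, the smallest that 6 libraries allow. Adjusted over the 9 pairs of neighbours in this order, these became 0.141, and the smallest value any other pair had was 0.169. With 6 libraries, p-values at the smallest possible level in only 2 of 9 pairs cannot pass that adjustment, so a missed threshold does not show that neighbours had equal levels.

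Among the identity genes, Dclk1, a microtubule-associated kinase widely used to mark tuft cells, was the steadiest of the 8. It had 20.0, 22.0 and 16.9 CPM in KO 1, KO 2 and KO 3, against 20.9, 23.7 and 19.9 CPM in WT 1, WT 2 and WT 3. The groups overlapped, and the highest library exceeded the lowest by a factor of 1.41. Dclk1 had a log2 fold change of -0.13 ± 0.17 (SE), with a 95% interval of -0.53 to 0.26 (edgeR adjusted p = 0.781). Dclk1 (ENSMUSG00000027797) lies on chromosome 3 from 55242364 to 55539068 (plus strand, GRCm38). RefSeq lists 2 start sites for it, whose transcripts a count per gene adds together, and enteric neurons also hold Dclk1 RNA. Markers of enteric neurons and glia summed to 98.01 to 112 CPM in KO and 123 to 172 CPM in WT, and the smallest p-values were those of the intermediate filament gene Prph with a log2 fold change of -0.79 ± 0.23 (edgeR adjusted p = 0.218) and the neuronal tubulin Tubb3 (-0.72 ± 0.22, adjusted p = 0.235). Of these 10 markers 0 were called in edgeR and 3 had an unadjusted p below 0.05 (13.0% of all genes). Their log2 fold changes lay above 0 for 2 and below 0 for 8. What these cells add to the Dclk1 level was not tested.

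Pou2f3, the transcription factor on which the tuft lineage depends (ENSMUSG00000032015, chromosome 9 from 43123939 to 43210369, minus strand), was the one gene of the 8 with a positive fold change. It had 1.18, 2.23 and 1.02 CPM in the KO libraries and 1.11, 1.53 and 0.393 CPM in the WT libraries. KO 2 was the highest and WT 3 the lowest, and the other 4 libraries lay between 1.02 and 1.53 CPM. The log2 fold change of 0.53 ± 0.54 had a 95% interval of -0.72 to 1.78 (edgeR adjusted p = 0.723), and it was 0.12 without KO 2 and 0.16 without WT 3.

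Avil encodes the actin-bundling protein advillin of the tuft cell apex and of sensory neurons (ENSMUSG00000025432, chromosome 10 from 127000709 to 127020994, plus strand). Its values were 5.70, 6.01 and 6.44 CPM in KO, against 8.30, 10.7 and 6.17 CPM in WT. The KO libraries differed among themselves by a factor of 1.13, and WT 3 lay inside their range. Its log2 fold change was -0.47 ± 0.25, with a 95% interval of -1.06 to 0.11 (edgeR adjusted p = 0.469, exact permutation p = 0.2). In edgeR its unadjusted p was 0.0375 without WT 3 (adjusted p = 0.496) and 0.0341 with scaling by epithelial markers (adjusted p = 0.398). Without WT 2 the log2 fold change was -0.23 (edgeR adjusted p = 0.811). Avil overlaps Tsfm on the opposite strand of chromosome 10. Whether reads were counted by strand is not given, and Tsfm had 1910 counts over the 6 libraries against 843 for Avil.

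Sh2d6, an SH2 domain gene used as a tuft cell marker (ENSMUSG00000052631, chromosome 6 from 72513641 to 72521707, minus strand), varied most among the 8. It had 1.80, 2.35 and 3.01 CPM in KO, against 2.31, 4.43 and 0.617 CPM in WT. The 3 WT libraries held both extremes, which differed by a factor of 7.18. The counts of WT 2 and WT 3 gave 95% Poisson intervals of 3.55 to 5.47 and 0.308 to 1.10 CPM, which do not meet. For Sh2d6 the log2 fold change was -0.04 ± 0.60, with a 95% interval of -1.43 to 1.34 (edgeR adjusted p = 0.982), and it became 0.71 without WT 2 and -0.49 without WT 3.

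Of the taste signalling genes, Trpm5, the calcium-activated cation channel that depolarises taste and tuft cells (ENSMUSG00000009246, chromosome 7 from 143069153 to 143094642, minus strand), also had both extremes in WT. Trpm5 had 6.68, 4.28 and 6.49 CPM in KO, against 6.41, 11 and 3.82 CPM in WT. Again WT 2 was the highest and WT 3 the lowest of the 6, and all KO values fell between them. The resulting log2 fold change was -0.28 ± 0.39, with a 95% interval of -1.18 to 0.62 (edgeR adjusted p = 0.801), and it turned to 0.20 without WT 2. Trpm5 overlaps Tssc4 on the opposite strand of chromosome 7, which had 1882 counts against 754 for Trpm5. Gnat3, the gustducin alpha subunit gene (ENSMUSG00000028777, chromosome 5 from 17962549 to 18019834, plus strand), did not pass the filter. It had 3, 12 and 8 counts in KO and 2, 9 and 5 counts in WT, a ratio of 1.61 after scaling with a 95% exact interval of 0.815 to 3.27 that covers counting error only. That interval includes 1, and Gnat3 was not tested in edgeR.

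The IL-25 axis held the gene with the lowest level, Il25, and the gene with the lowest fold change, Il17rb. Il25, the tuft cell cytokine gene (ENSMUSG00000040770, chromosome 14 from 54932695 to 54935837, plus strand), had 1, 2 and 1 counts in KO and 5, 2 and 0 counts in WT and did not pass the filter. The scaled ratio of 0.641 had a 95% exact interval of 0.138 to 2.52, and for the count of 0 in WT 3 the floor of 3 counts lies at 0.168 CPM. Il17rb, the gene of its receptor subunit (ENSMUSG00000015966, chromosome 14 from 29996135 to 30008896, minus strand), had 0.668, 1.11 and 0.698 CPM in KO, against 1.28, 2.85 and 0.954 CPM in WT. KO 2 lay above WT 3, so the groups overlapped, and WT 2 exceeded the next library by more than the whole range of KO. Il17rb had a log2 fold change of -1.04 ± 0.51, with a 95% interval of -2.20 to 0.12 (edgeR adjusted p = 0.425, exact permutation p = 0.2), and it was -0.42 without WT 2. Without WT 3 this log2 fold change was -1.32 (edgeR unadjusted p = 0.0359, adjusted p = 0.491). Il17rb overlaps Actr8 on the opposite strand of chromosome 14, which had 2636 counts against 147 for Il17rb, and Actr8 itself had a log2 fold change of -0.15 ± 0.15 (edgeR adjusted p = 0.714).

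Of the leukotriene synthesis genes, Alox5 was highest in WT 2 and lowest in KO 3, and Ltc4s was highest in WT 3 and lowest in KO 2. Alox5, the gene of 5-lipoxygenase (ENSMUSG00000025701, chromosome 6 from 116410077 to 116461178, minus strand), had 7.60, 2.91 and 2.09 CPM in KO, against 4.23, 9.12 and 5.45 CPM in WT. KO 1 lay among the WT values while KO 2 and KO 3 lay below all of them. Alox5 had a log2 fold change of -0.57 ± 0.51, with a 95% interval of -1.74 to 0.60 (edgeR adjusted p = 0.680). Without KO 1 it was -1.32 (unadjusted p = 0.0147, adjusted p = 0.189), and without WT 2 it was -0.18. Ltc4s, the gene of leukotriene C4 synthase (ENSMUSG00000020377, chromosome 11 from 50236461 to 50238616, minus strand), had 1.75, 1.18 and 1.40 CPM in KO, against 1.33, 2.04 and 2.41 CPM in WT. WT 1 lay inside the KO range, and the log2 fold change was -0.41 ± 0.36, with a 95% interval of -1.25 to 0.43 (edgeR adjusted p = 0.681).

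Both leukotriene genes are also active in myeloid and mast cells, whose markers varied between the libraries. The 8 macrophage markers summed to 497, 335 and 126 CPM in KO and 383, 599 and 714 CPM in WT, so that KO 3 was the lowest for them and for Alox5 alike. All 8 had log2 fold changes below 0 with a median of -0.83, and the smallest p was that of the complement gene C1qa (-0.81 ± 0.33, edgeR adjusted p = 0.357). The 10 mast cell markers summed to 75.5 to 111 CPM in KO and 86.4 to 198 CPM in WT, with WT 2 the highest. Most of this sum was Kit, the stem cell factor receptor gene, which is also active in interstitial cells of Cajal and had a log2 fold change of -0.06 ± 0.21 (edgeR adjusted p = 0.921). Without Kit, a choice made after seeing the data, the other 9 summed to 13.9, 5.82 and 5.21 CPM in KO, against 17, 92.4 and 23.1 CPM in WT, ranges that did not overlap. Single markers weighed heavily in these sums. Hdc made up 8.55 CPM of the WT 1 sum and 3.60 CPM of the KO 1 sum, and Mcpt1 made up 50.8 CPM of the WT 2 sum. Of the 10 mast cell markers, Kit included, 6 were tested and 0 were called in edgeR. An unadjusted p below 0.05 was reached by 3 of these 6 (13.0% of all genes). KO lay wholly below WT for 2 of the 6, against 19.5% of all genes in either direction. DESeq2 called 2 lower (3.77% of all genes in either direction). These were the histamine-forming enzyme gene Hdc (-1.70 ± 0.46, edgeR adjusted p = 0.196) and the protease gene Mcpt2 (-2.81 ± 0.81, edgeR adjusted p = 0.219). The 8 neutrophil markers summed to 10.1 to 37.1 CPM in KO and 82.7 to 163 CPM in WT, ranges that did not overlap, led by Mmp8 (-4.16 ± 0.64, edgeR adjusted p = 0.0595). Of the 6 tested, 0 were called in edgeR, 5 had an unadjusted p below 0.05 (13.0% of all genes) and DESeq2 called 4 lower (3.77% of all genes in either direction). The 7 eosinophil markers summed to 2.36 to 5.44 CPM in KO and 3.29 to 7.74 CPM in WT, ranges that overlapped. Epx had 1 count and Ear6 none over all libraries. Of the 4 tested 0 were called in edgeR, and the groups stood apart for 1 (19.5% of all genes), the granule protein gene Prg2. Prg2 had 0.226 ± 0.0785 CPM in KO and 1.49 ± 0.228 CPM in WT (SD, n = 3 each, edgeR adjusted p = 0.0644). Ccr3, next by p, had a log2 fold change of -0.87 ± 1.23 (edgeR adjusted p = 0.805). The part of these cells in the Alox5 and Ltc4s values was not tested.

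**Figure D2:**
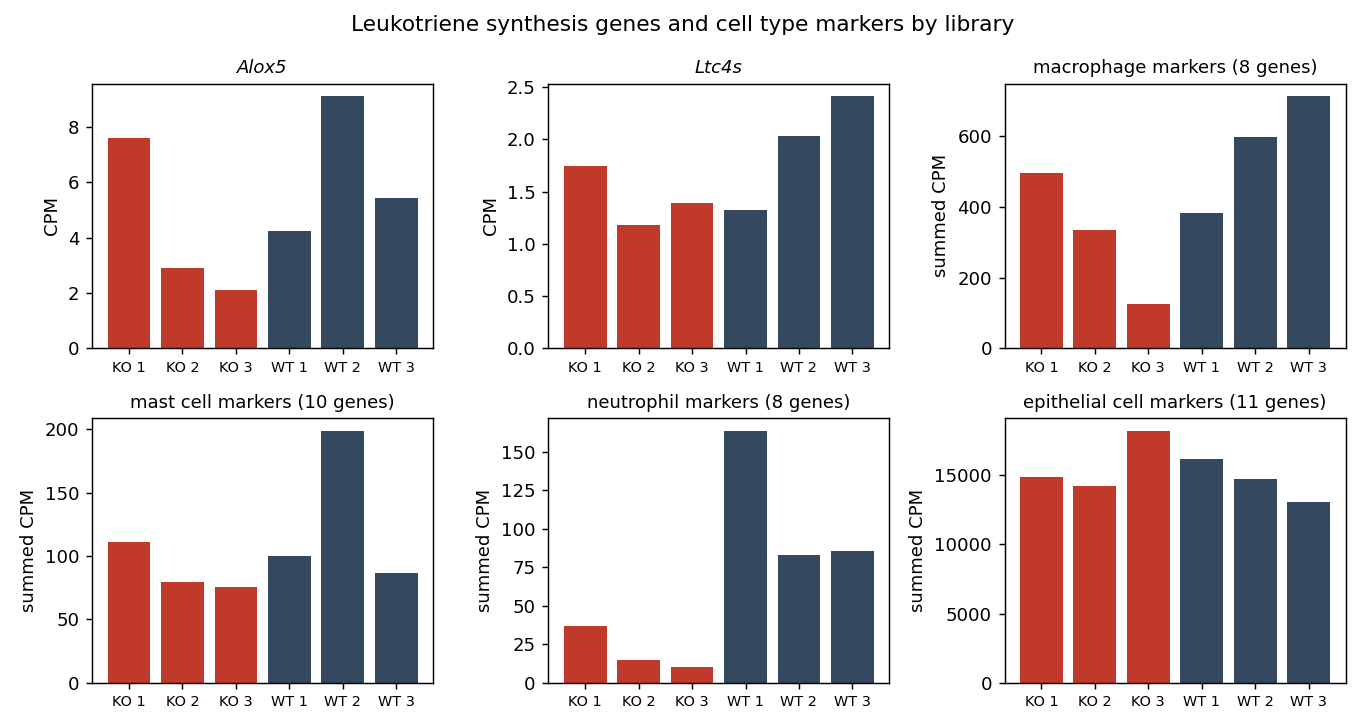
Levels of Alox5 and Ltc4s in CPM and summed CPM of 4 cell type marker lists, each bar being 1 library, with KO in red on the left and WT in grey on the right. Alox5 and the macrophage markers are both lowest in KO 3, where they reach 2.09 and 126 CPM, while the epithelial markers are highest there at 18200 CPM.

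Across the 6 libraries, WT 2 and WT 3 stood at opposite ends for Sh2d6 and Trpm5. WT 2 was the highest library for 6 of the 8 tested genes, and in it all 8 lay above their own mean, with a median deviation of 0.69 on the log2(CPM + 0.5) scale. WT 3 was the lowest for Pou2f3, Sh2d6 and Trpm5, with deviations of -0.89, -1.25 and -0.61, whereas its Dclk1 level was near the mean at -0.04. The median deviation was lowest in WT 3, at -0.18. In KO 2 and KO 3 the median deviations were -0.12 and -0.15, in KO 1 the median lay near 0, and in WT 1 it was 0.05. Markers of the epithelium as a whole summed to 14760 CPM in WT 2 and 13100 CPM in WT 3, the lowest of the 6, and their part in the contrast of these libraries was not tested. The epithelial sum was 14200 to 18200 CPM in KO and 13100 to 16200 CPM in WT. Of its 11 genes 0 were called in edgeR and 1 had an unadjusted p below 0.05 (13.0% of all genes). Enteroendocrine markers summed to 319 to 498 CPM in KO and 313 to 445 CPM in WT, and goblet cell markers to 16100 to 31100 CPM in KO and 17000 to 21700 CPM in WT, with 0 called in edgeR and 0 at an unadjusted p below 0.05 in either list.

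**Figure D3:**
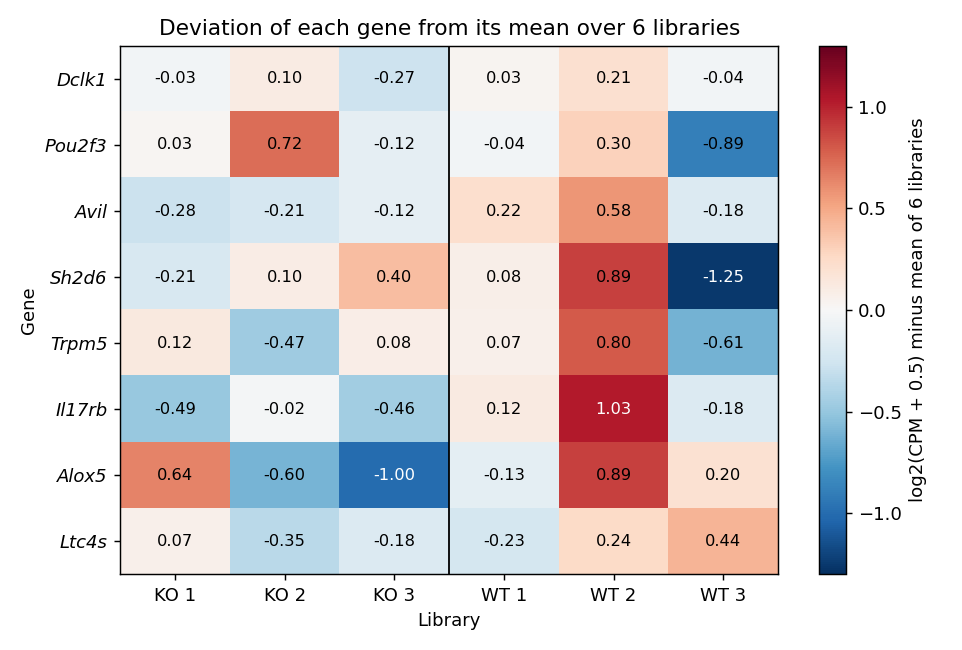
Deviation of each of the 8 tested tuft cell genes (rows) from its own mean over the 6 libraries, on the log2(CPM + 0.5) scale, with KO libraries left of the line and WT libraries right of it. The column of WT 2 is above 0 throughout, and WT 3 holds the lowest value, -1.25 for Sh2d6.

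Relations among the genes across the 6 libraries were described with Trpm5 as the common partner, in 7 relations. Sh2d6 followed it most closely, with a Pearson r of 0.80 (exact permutation p = 0.0736, adjusted p = 0.354) and a Spearman rho of 0.60 (exact permutation p = 0.242, adjusted p = 0.790), and Avil came next, with r = 0.77 (exact permutation p = 0.101, adjusted p = 0.354) and rho = 0.31 (exact permutation p = 0.564, adjusted p = 0.790). The other 5 genes had r between 0.09 for Ltc4s and 0.61 for Il17rb. Without WT 2 and WT 3, the libraries farthest from the median of Trpm5, r was -0.08 for Sh2d6 and 0.27 for Avil, so both relations rested largely on these libraries, although dropping the extremes of Trpm5 also narrows its range. With each genotype's mean removed, r over all 6 was 0.85 for Sh2d6 and 0.89 for Avil. None of the 7 passed after adjustment.

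The profile most like that of the identity and taste genes was sought among 13458 other genes of at least 1 CPM, by Pearson r over the 6 libraries with the mean of the standardised levels of Dclk1, Pou2f3, Avil, Sh2d6 and Trpm5. The 6 closest were Ankrd35 (r = 0.99), Zfp276 (r = 0.99), Igf2bp2 (r = 0.98), Misp (r = 0.96), Sh2d7 (r = 0.96) and Cdcp1 (r = 0.95), which is a description of these libraries. Sh2d7, an SH2 domain gene, had 4.83, 4.96 and 4.29 CPM in KO, against 4.15, 10.2 and 2.08 CPM in WT. WT 2 and WT 3 were its extremes, as they were for all 6 of these genes and for the profile (1.28 and -1.08). Because the 6 genes were chosen by likeness to that profile, this is no separate evidence. Sh2d7 had a log2 fold change of -0.23 (edgeR adjusted p = 0.881).

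The stretches of 250 bases before the start sites of Trpm5, Sh2d6 and Avil are shown, Trpm5 and Sh2d6 because their extremes over the libraries were both WT 2 and WT 3, and Avil because it held the only match described below. POU2F3 belongs to the POU family, some members of which bind the octamer ATGCAAAT. Sequences are from RefSeq on GRCm38.p6, whose start of Sh2d6 lies inside the gene as GENCODE bounds it, downstream of the outermost start, and they are written in the direction of transcription, and capitals mark the 7-base end ATGCAAA of the octamer or its reverse complement.
Trpm5 (chr7:143094643-143094892, minus strand): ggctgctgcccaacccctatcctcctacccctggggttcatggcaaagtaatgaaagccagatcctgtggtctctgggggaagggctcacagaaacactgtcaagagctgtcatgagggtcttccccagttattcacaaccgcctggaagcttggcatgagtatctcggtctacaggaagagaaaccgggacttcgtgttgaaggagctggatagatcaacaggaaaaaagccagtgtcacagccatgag
Sh2d6 (chr6:72520037-72520286, minus strand): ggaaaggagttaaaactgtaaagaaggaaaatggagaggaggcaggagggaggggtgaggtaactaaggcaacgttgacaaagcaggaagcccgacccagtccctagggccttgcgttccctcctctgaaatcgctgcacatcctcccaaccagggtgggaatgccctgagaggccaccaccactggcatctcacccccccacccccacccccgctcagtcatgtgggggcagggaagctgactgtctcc
Avil (chr10:127000459-127000708, plus strand): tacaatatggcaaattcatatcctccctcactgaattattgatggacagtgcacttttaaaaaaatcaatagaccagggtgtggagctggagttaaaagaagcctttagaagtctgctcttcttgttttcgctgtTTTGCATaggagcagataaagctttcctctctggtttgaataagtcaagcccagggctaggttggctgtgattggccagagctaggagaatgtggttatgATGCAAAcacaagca
RefSeq windows were at hand for 8 of the 10 genes, 9 windows in all. None held ATGCAAAT or the looser ATGNAAAT on either strand, which occurred in 1.6% and 5.03% of the 32851 windows of this length. The end ATGCAAA, part of the full octamer, occurred in 4.12% of all windows and in the Avil window alone among the 9, once on each strand, beginning 115 and 15 bases before the start site. The other end, TGCAAAT, occurred in 3.56% of all windows and in none of the 9. These are matches of letters, not binding sites.

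Other genes of the tuft program were not called in edgeR either. In 3 further lists, of transcription regulators, of the taste cascade and of other epithelial tuft genes, 19 of 27 genes were tested. Some had levels well above those of Dclk1 (19.6 CPM in KO and 21.5 CPM in WT). Among these were Sox9, Kctd12 and the taste cascade gene Itpr3 (191 CPM in KO and 217 CPM in WT). What other colon cells add to the genes of these lists was not tested. In edgeR 0 of the 19 were called (0.158% of all genes) and 3 had an unadjusted p below 0.05 (13.0% of all genes). DESeq2 called 1 of them (3.77% of all genes), while limma-voom called 0 (0.199% of all genes). Their median log2 fold change was -0.12, beside 0.03 over all genes, and it turned to 0.17 without WT 2. The gene called by DESeq2 was Sox9, a transcription factor of crypt progenitors and of tuft and Paneth cells, with 54.5 ± 6.06 CPM in KO and 33.5 ± 5.28 CPM in WT (SD, n = 3 each). Sox9 had a log2 fold change of 0.70 ± 0.17 (edgeR adjusted p = 0.154, DESeq2 adjusted p = 0.0176), and its KO values, 50.6 to 61.5 CPM, all lay above its WT values, 28.5 to 39.0 CPM. Among the 19 genes, KO lay wholly above WT for 2 and wholly below for 3, against 19.5% of all genes in either direction. Sox4, a related factor, had a log2 fold change of 0.39 ± 0.16 (edgeR adjusted p = 0.361). Kctd12, a GABA-B receptor auxiliary subunit gene, had 57.0 ± 15.9 CPM in KO and 87.9 ± 3.81 CPM in WT (SD, n = 3 each, edgeR adjusted p = 0.248). In the taste cascade the sweet and umami receptor subunit Tas1r3 had 0.550 ± 0.224 CPM in KO and 0.979 ± 0.151 CPM in WT (SD, n = 3 each, edgeR adjusted p = 0.474), and Plcb2, the phospholipase that follows the G protein, had a log2 fold change of -0.18 ± 0.44 (edgeR adjusted p = 0.890).

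**Figure D4:**
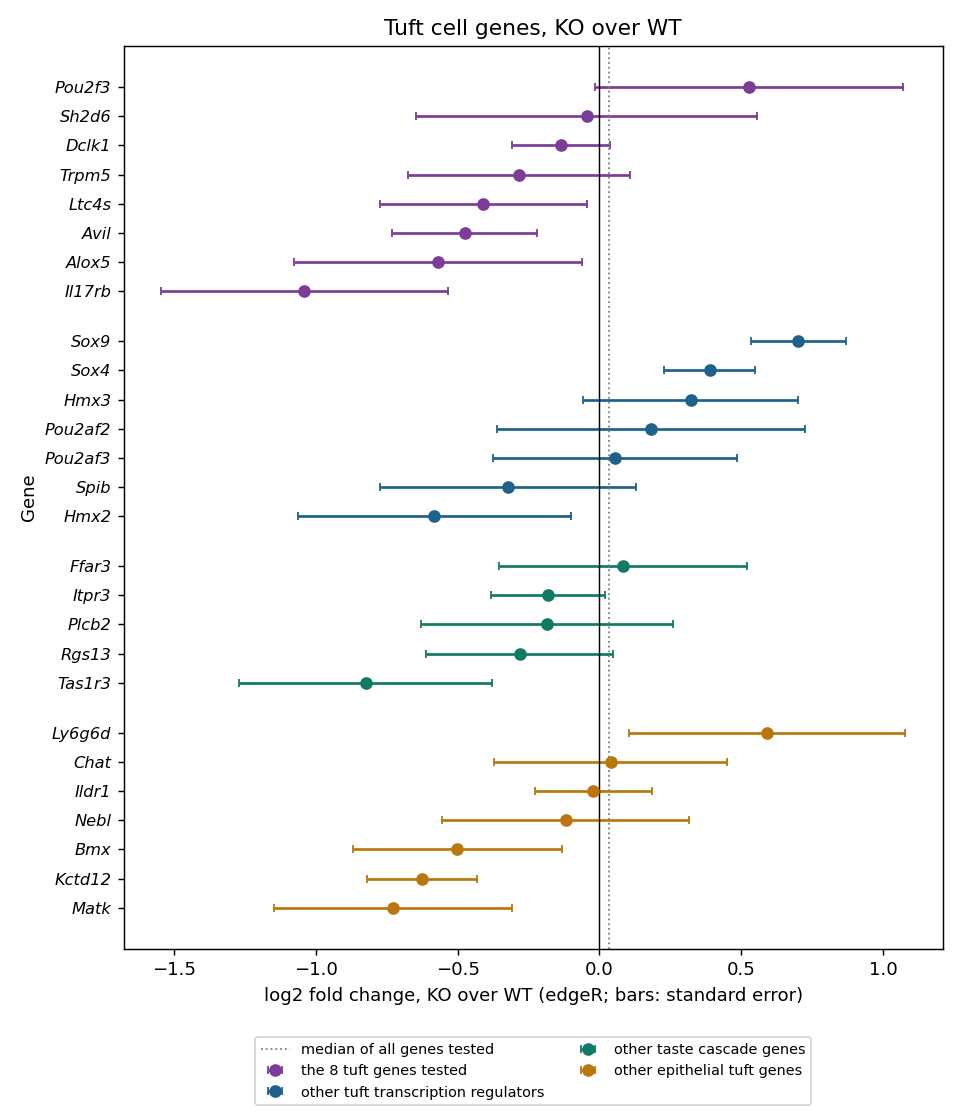
Log2 fold changes (KO over WT, edgeR) of the 8 tested tuft cell genes and of the 19 tested genes of 3 further tuft lists, with bars for the standard error and a dotted line at the median of all genes tested, 0.03. Il17rb is the lowest at -1.04 and Sox9 the highest at 0.70, and none of the 27 passed in edgeR.

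Genes that tuft cells share with blood cells formed a list of 12. All 12 were tested, and 0 were called in edgeR, 4 had an unadjusted p below 0.05 (13.0% of all genes), DESeq2 called 1 (3.77% of all genes) and limma-voom 0. The median log2 fold change was -0.37. Cd300lf, an inhibitory receptor of myeloid cells and of tuft cells, had 1.70 ± 0.706 CPM in KO and 5.03 ± 0.459 CPM in WT (SD, n = 3 each), a log2 fold change of -1.55 ± 0.34 (edgeR adjusted p = 0.125, DESeq2 adjusted p = 0.00381). Inpp5d, a phosphatase of blood cell signalling, had -0.79 ± 0.24 (edgeR adjusted p = 0.231) and the exchange factor Vav1 had -0.65 ± 0.21 (edgeR adjusted p = 0.265). The neutrophil and macrophage sums above vary over the same libraries, and their part in these values was not tested.

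Further genes belong with leukotriene synthesis and the IL-25 axis. Of 9 tested eicosanoid genes 0 were called in edgeR, 4 had an unadjusted p below 0.05 (13.0% of all genes), DESeq2 called 1 lower (3.77% of all genes in either direction) and limma-voom 0, with a median log2 fold change of -0.48. Ggt5, an enzyme that converts leukotriene C4 to D4, had 13.5 ± 6.90 CPM in KO and 29.9 ± 1.85 CPM in WT (SD, n = 3 each), a log2 fold change of -1.15 ± 0.33 (edgeR adjusted p = 0.22, DESeq2 adjusted p = 0.0231). Alox5ap, which hands arachidonic acid to 5-lipoxygenase, had 16.1, 8.24 and 4.45 CPM in KO, against 18.9, 22.0 and 20.7 CPM in WT (edgeR adjusted p = 0.323), and its groups did not overlap. Of the 9 eicosanoid genes, KO lay wholly below WT for 4 and wholly above for 1, against 19.5% of all genes in either direction. Their log2 fold changes lay above 0 for 4 and below 0 for 5. Ptgs1, the constitutive cyclooxygenase found in tuft cells and elsewhere, had a log2 fold change of -0.61 ± 0.21 (edgeR adjusted p = 0.302). Of 10 tested type 2 signals and receptors 0 were called in edgeR, 4 had an unadjusted p below 0.05, DESeq2 called 3 lower and limma-voom 0, beside the same shares of all genes, with a median of -0.42. The DESeq2 calls were the receptor genes Il4ra (-0.73 ± 0.18, edgeR adjusted p = 0.169) and Il1rl1 (-2.61 ± 0.66, edgeR adjusted p = 0.170) and the alarmin Il33 (-1.47 ± 0.46, edgeR adjusted p = 0.247). Il1rl1 had 31.5, 26.2 and 7.51 CPM in KO, against 258, 68.5 and 71.6 CPM in WT, so that WT 1 stood far above the others. Among the type 2 cytokine genes, Il4 totalled 2 counts in KO and 0 in WT, Il5 totalled 0 in KO and 1 in WT, and Il13 totalled 0 in KO and 4 in WT, too few to compare.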

How the data were processed

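Total colon RNA was extracted with Trizol and made into SMARTER mRNA-Seq libraries, per the labels' protocols. GRCm38, mm10 and mm39 are named by the submitters' processing notes without a role, and no source used here names an aligner, counting program, annotation or strand setting. The authors deposited read counts per gene, which were analysed unchanged. Their TPM, also deposited, compare levels between genes and serve 1 alternative. The deposited p-value, false discovery rate and log2 fold change are the authors' own comparison. Members and lists were chosen with earlier results of these data known.

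KO was tested over WT on the whole table by quasi-likelihood in edgeR (4.0.16, R 4.3.3), scaled by TMM. Its filterByExpr step kept 14553 of 21899 genes. A gene was called at p below 0.05 after Benjamini-Hochberg adjustment over all genes tested. Standard errors and 95% intervals derive from the F statistic and are approximate. CPM are scaled by the TMM factors, and logs of CPM had 0.5 added. Totals of 15786214 to 22932125 counts limit genes of a few counts, and count intervals and the floor of 3 counts cover counting error only. Exact permutation tests are two-sided, and 3 against 3 cannot go below 0.1. The 2 closest libraries differed by a chi-square of 45.0 per degree of freedom, so none was counted as a repeat. The fit was tested on simulated data. Gene positions are from GENCODE M21 (GRCm38), matched by identifier.

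Named besides the 10 genes were Adamts4, the genes with the smallest p of each further list (up to 4, or 2 of a marker list), and the 6 closest profiles. Cytokines, overlapping genes, Kit, Mcpt1 and markers near 0 outside that rule were named after their values were seen. Alternatives were median-ratio, upper-quartile and epithelial-marker factors, no filter, at least 1 CPM in 3 libraries, DESeq2 1.42.0, limma-voom and limma (3.58.1) on log2(TPM + 1), a replicate block, an adjusted p below 0.1 and each library left out.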

Additional observations from a re-analysis of the deposited data

How the results depend on the processing

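The count of 0 called among the 8 tested tuft cell genes held under all 16 alternatives, and their median log2 fold change stayed between -0.54 and -0.11, with the left-out libraries giving both ends. Directions of Dclk1, Pou2f3, Avil, Il17rb, Alox5 and Ltc4s held under all 15 alternative fits. Sh2d6 turned to 0.28 with limma-voom and 0.13 with limma on log2(TPM + 1), and ran from -0.49 to 0.71 with 1 library left out. Trpm5 ran from -0.58 to 0.20 with 1 library left out. Of the 19 other tuft genes DESeq2 called 1 (3.77% of all genes), and their median ran from -0.20 to 0.17 with 1 library left out. The 23 calls among all genes became 9 with median-ratio factors, 39 with upper-quartile factors, 1 with factors from epithelial markers, 69 with no filter, 548 with DESeq2, 68 with limma on TPM and 134 at an adjusted p below 0.1, and 1 to 29 with 1 library left out. The causes were not tested. Factors from epithelial markers moved the median of all genes to -0.12, from 0.03.

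The replicate numbers share no stated source, and same-numbered libraries deviated from their group means with correlations of -0.42, -0.15 and -0.43, so they were not treated as pairs. With the replicate block 81 genes were called, none of them a tuft cell gene, the median of the 8 was -0.28 and Sh2d6 stood at 0.21. Genes of a few counts, such as Il25 and Gnat3, are limited by depth.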
